A study of Rattus norvegicus with 6 samples.

Results

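The thioredoxin system of the rat left ventricle was described through 10 genes, namely the inhibitor Txnip, the thioredoxins Txn1 and Txn2, the reductases Txnrd1 and Txnrd2, and the peroxiredoxins Prdx1, Prdx2, Prdx3, Prdx5 and Prdx6. Members were found by symbol in the array's annotation, which gave 11 of 15866 probe sets, a probe set being a group of short oligonucleotides that together measure 1 transcript. Of these, 10 named a single gene, with 2 for Txnrd1. The other named Prdx1 together with its close copy Prdx1l1, so its signal is given for the pair and assigned to neither. All 11 were bright enough to be tested.

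The series holds 6 hearts, each on 1 Affymetrix array: 3 from rats labelled normal and 3 from rats labelled diabetic, counted as separate animals, with the tissue given as left ventricle and the RNA as total RNA. The labels name no strain, sex, age or feeding state, and neither how nor for how long the diabetic rats had been diabetic. Values are the deposited signal intensities on a linear scale, with the same trimmed mean, 500.2, on every array. Fold changes are diabetic minus normal on the scale of log2(signal + 16), with standard errors and 95% intervals from limma. An adjusted p is Benjamini-Hochberg over all 9519 tested probe sets, and "rose" or "fell" is kept for an adjusted p under 0.05.

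Thioredoxins are small proteins that reduce disulfides in other proteins, and a thioredoxin reductase, a selenium-containing flavoenzyme, recharges them with electrons from NADPH. Peroxiredoxins use those electrons to destroy peroxides. The cytosol holds Txn1 and Txnrd1, while mitochondria, the main site of peroxide formation in heart muscle, have their own set in Txn2, Txnrd2 and Prdx3. Txnip binds reduced thioredoxin, lowers glucose uptake, and is known as a gene strongly induced by glucose.

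In the diabetic ventricles the transcript of the cytosolic reductase Txnrd1 was 1.81-fold to 1.83-fold that of normal ventricles at its 2 probe sets, and the dimmer of them rose. Txnip stood at 1.69-fold and Prdx2 at 1.32-fold the normal mean, and neither passed the test. Txn2, Txnrd2, Prdx3 and Prdx5, which are found in mitochondria, had log2 fold changes between -0.19 and -0.14, and none passed. Of the 11 probe sets, 1 rose and none fell in limma, where 1.50% of all tested probe sets rose and 1.38% fell. At an unadjusted p under 0.05, 4 were higher (both Txnrd1 probe sets, Txnip and Prdx2) and 0 lower, where 9.54% of all tested probe sets were higher and 10.3% lower. Every diabetic array lay above every normal array at 6 probe sets (Txnip, Txn1, both of Txnrd1, Prdx2 and Prdx6), as it did at 12.1% of all tested probe sets. Every diabetic array lay below every normal array at 1 (Prdx3), as it did at 13.6%. The median log2 fold change was 0.18 over the 11 and -0.01 over all tested.

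**Figure D1:**
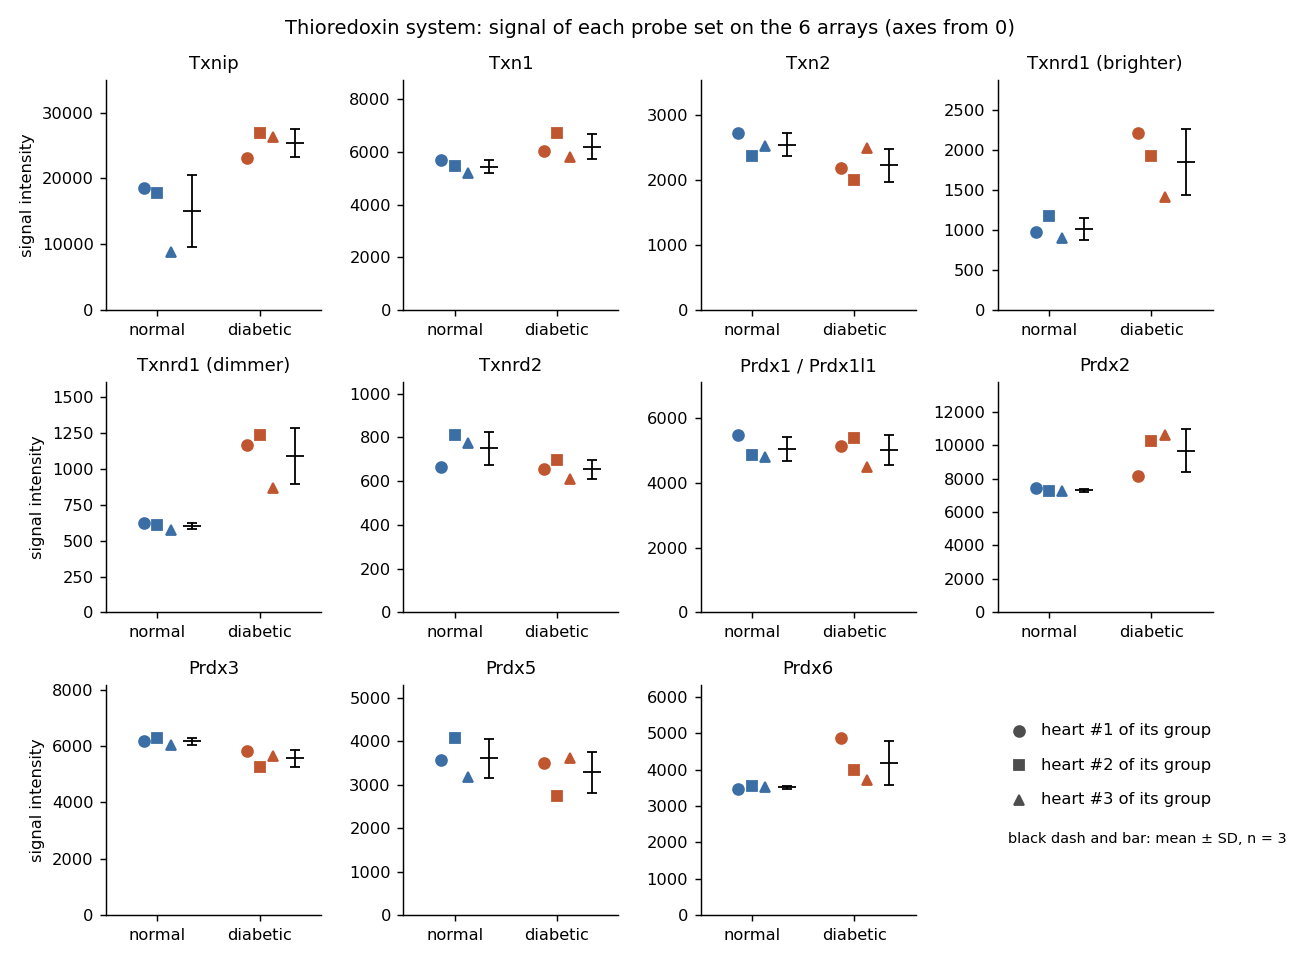
Signal intensity (linear scale, axis from 0) of each of the 11 probe sets on the 6 arrays, in blue for normal and orange for diabetic hearts, with marker shapes for hearts #1 to #3 of each group and black bars for the mean ± SD (n = 3). The groups are apart at Txnip, Txn1, both Txnrd1 probe sets, Prdx2, Prdx3 and Prdx6, and Txnip on normal 3 sits at 8758.0, far below the other normal hearts.

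Txnip, an alpha-arrestin that binds and blocks thioredoxin, was measured by 1 probe set (1371131_a_at). Its signal was 18518.1, 17841.4 and 8758.0 in normal hearts 1, 2 and 3, and 23035.4, 26929.2 and 26250.8 in diabetic hearts 1, 2 and 3. The groups did not overlap, but normal 3 lay 1.05 below the mean of the other normal hearts on the log2 scale, which is more than the difference between the groups. The means were 15039 ± 5450.2 and 25405 ± 2080.1 (SD, n = 3 each), and the log2 fold change was 0.83 ± 0.27 (95% interval 0.22 to 1.44, adjusted p = 0.136). Without normal 3 it was 0.48 (adjusted p = 0.237), and without any other array it lay between 0.79 and 1.02. In the exact permutation test the two-sided p was 0.1, the smallest that 3 against 3 arrays can give.

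The probe sets whose values followed those of Txnip most closely were sought among 8099 others that name 1 gene, by Pearson's r over the 6 arrays. They were Etfbkmt (r = 0.997), which encodes a mitochondrial protein methyltransferase, Bcas3 (r = 0.996) and Angptl4 (r = 0.993), a secreted inhibitor of lipoprotein lipase. Angptl4 had signals of 927.2, 1083.3 and 72.7 in normal and 1535.1, 2835.4 and 2442.9 in diabetic hearts. Etfbkmt had 745.5, 725.8 and 414.6 in normal and 893.5, 977.2 and 1040.6 in diabetic hearts. In all of these, as in Txnip, normal 3 was the lowest array and the diabetic hearts were the highest. With 6 arrays, r was above 0.95 at 80 of the 8099 probe sets, and these values are a description.

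**Figure D2:**
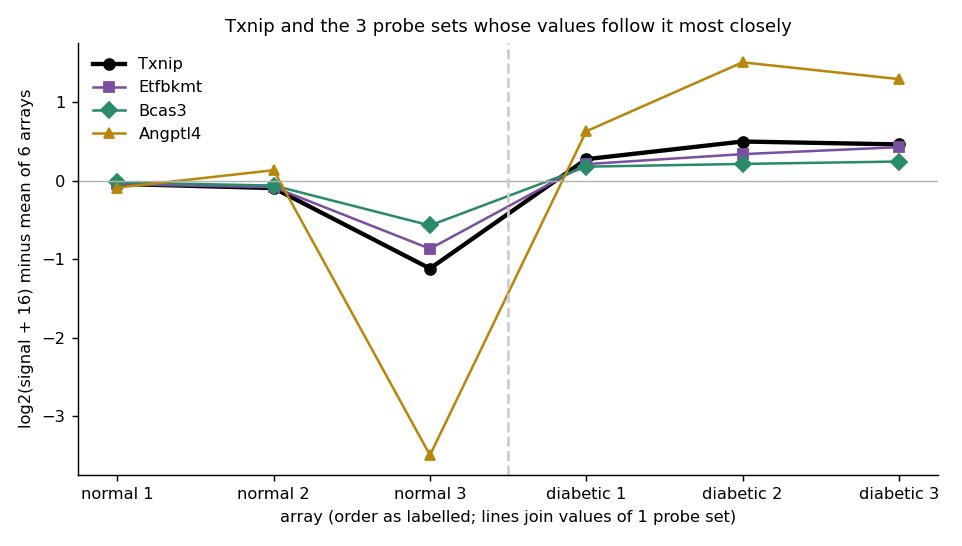
Values of log2(signal + 16) minus the mean of the 6 arrays (vertical axis) on each array (horizontal axis), for Txnip (black) and the 3 probe sets with the highest Pearson's r to it. All 4 lines dip at normal 3, deepest for Angptl4, whose signal there was 72.7, and lie above 0 in each diabetic heart.

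Thioredoxins are the direct targets of Txnip. Txn1, the cytosolic and nuclear form (1398839_at), had signals of 5688.0, 5451.0 and 5189.9 in normal and 6018.7, 6723.3 and 5821.3 in diabetic hearts. Each diabetic heart was above each normal heart, by a small margin. The log2 fold change was 0.18 ± 0.14 (95% interval -0.13 to 0.50, adjusted p = 0.517). Txn2, the mitochondrial form (1398844_at), had 2726.2, 2375.6 and 2522.2 in normal and 2184.5, 1997.8 and 2490.9 in diabetic hearts. Here diabetic 3 lay within the normal range while diabetic 1 and 2 lay below it, and the log2 fold change was -0.19 ± 0.15 (95% interval -0.53 to 0.14, adjusted p = 0.519). As ratios of diabetic to normal, the intervals run from 0.912 to 1.41 for Txn1 and from 0.692 to 1.10 for Txn2.

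Txnrd1, the cytosolic reductase, gave the only call among the members. The dimmer probe set (1386958_at) had signals of 623.1, 608.0 and 576.9 in normal and 1168.0, 1235.5 and 869.6 in diabetic hearts. The normal hearts were tightly grouped, and the lowest diabetic heart, number 3, was still well above them. This probe set rose from a mean of 603 ± 23.6 to 1091.0 ± 194.7 (SD, n = 3 each), a log2 fold change of 0.82 ± 0.17 (95% interval 0.44 to 1.20, adjusted p = 0.0391).

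The brighter Txnrd1 probe set (1398791_at), which the annotation ties to the same transcript record, had 973.2, 1170.4 and 896.3 in normal and 2216.4, 1929.5 and 1407.8 in diabetic hearts. The groups were again apart and diabetic 3 was again the lowest diabetic heart. Its log2 fold change was 0.84 ± 0.20 (95% interval 0.40 to 1.29), and its adjusted p of 0.0584 missed the threshold. The difference was of nearly the same size at both probe sets, and the spread between arrays was larger at the brighter in both groups. At the brighter, the SD over the mean was 14.0% in normal and 22.1% in diabetic hearts, against 3.9% and 17.8% at the dimmer. The call at the dimmer probe set was lost on leaving out normal 1, 2 or 3 or diabetic 1 or 2, with log2 fold changes of 0.73 to 0.85 and adjusted p up to 0.130 (without normal 3). Without diabetic 3 both probe sets passed, at 1.03 for the brighter (adjusted p = 0.0441) and 0.98 for the dimmer (adjusted p = 0.0317). The call was also lost with no filter on dim probe sets (adjusted p = 0.169).

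**Figure D3:**
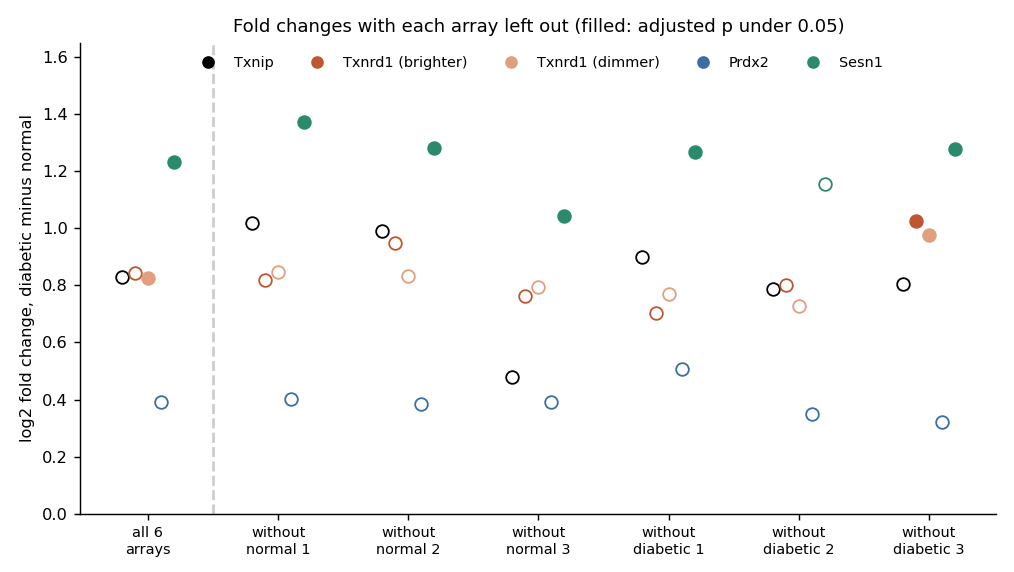
Log2 fold change, diabetic minus normal (vertical axis), with all 6 arrays and with each array left out (horizontal axis), for Txnip, both Txnrd1 probe sets, Prdx2 and Sesn1, filled where the adjusted p was under 0.05. Txnip drops to 0.48 without normal 3, while the Txnrd1 probe sets stay between 0.70 and 1.03.

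Txnrd1 is known as a target of NRF2 (encoded by Nfe2l2), a factor that binds antioxidant response elements, and the 250 bases before its start sites are shown because it is the member that rose. RefSeq (build GRCr8) gave start windows for 8 of the 10 members, 9 windows in all, without Txnip and Prdx6. Each was searched on both strands for the core of the element, TGACNNNGC (GCNNNGTCA on the other strand). Capitals mark a match. Of 33469 such windows, 10.1% held a match, and of the members' 9 windows 2 did, the first Txnrd1 window shown here (chr7:22755905-22756154, minus strand) and that of Prdx1 (chr5:135383656-135383905, plus strand), which is shown because the probe set for Prdx1 or Prdx1l1 had a log2 fold change near 0. The match ends 69 bases before the start site in Txnrd1 and 126 bases before it in Prdx1. The other Txnrd1 window (chr7:22764852-22765101, minus strand) held none, and the array does not tell transcripts from the 2 starts apart. A match is a run of letters and not a measured binding site.
Txnrd1 window with a match: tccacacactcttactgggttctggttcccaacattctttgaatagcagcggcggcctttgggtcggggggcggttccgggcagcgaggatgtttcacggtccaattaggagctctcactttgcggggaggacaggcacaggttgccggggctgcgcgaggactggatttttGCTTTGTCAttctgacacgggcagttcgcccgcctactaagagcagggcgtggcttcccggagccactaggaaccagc
Txnrd1 window without a match: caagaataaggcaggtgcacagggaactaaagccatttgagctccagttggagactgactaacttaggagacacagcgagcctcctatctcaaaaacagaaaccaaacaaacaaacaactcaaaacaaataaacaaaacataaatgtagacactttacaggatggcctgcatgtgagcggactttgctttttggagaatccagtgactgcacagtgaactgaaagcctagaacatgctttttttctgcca
Prdx1 window with a match: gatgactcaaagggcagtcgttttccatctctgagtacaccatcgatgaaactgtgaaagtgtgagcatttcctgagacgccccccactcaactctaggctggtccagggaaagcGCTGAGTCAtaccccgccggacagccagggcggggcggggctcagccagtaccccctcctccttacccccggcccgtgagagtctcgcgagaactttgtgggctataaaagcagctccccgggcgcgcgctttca

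Txnrd2, the mitochondrial reductase (1368309_at), had signals of 662.8, 809.4 and 776.0 in normal and 655.7, 697.0 and 608.0 in diabetic hearts. The groups overlapped through normal 1, which lay 0.25 below the mean of the other normal hearts on the log2 scale. The log2 fold change was -0.19 ± 0.15 (95% interval -0.52 to 0.14, adjusted p = 0.524). Within each array, the log2 signal of the brighter Txnrd1 probe set minus that of Txnrd2 was 1.03 ± 0.19 higher in diabetic than in normal hearts (difference ± SE over arrays, n = 3 each), and with the dimmer Txnrd1 probe set it was 1.01 ± 0.15 higher. Each diabetic heart exceeded each normal heart in both. For 5 such pairs of members, chosen after their values were seen, the exact permutation p was 0.1 in each. That is the smallest value possible here, and Benjamini-Hochberg adjustment over the 5 pairs left it at 0.1. The adjustment does not allow for that choice, so the pairs are a description and not a test.

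**Figure D4:**
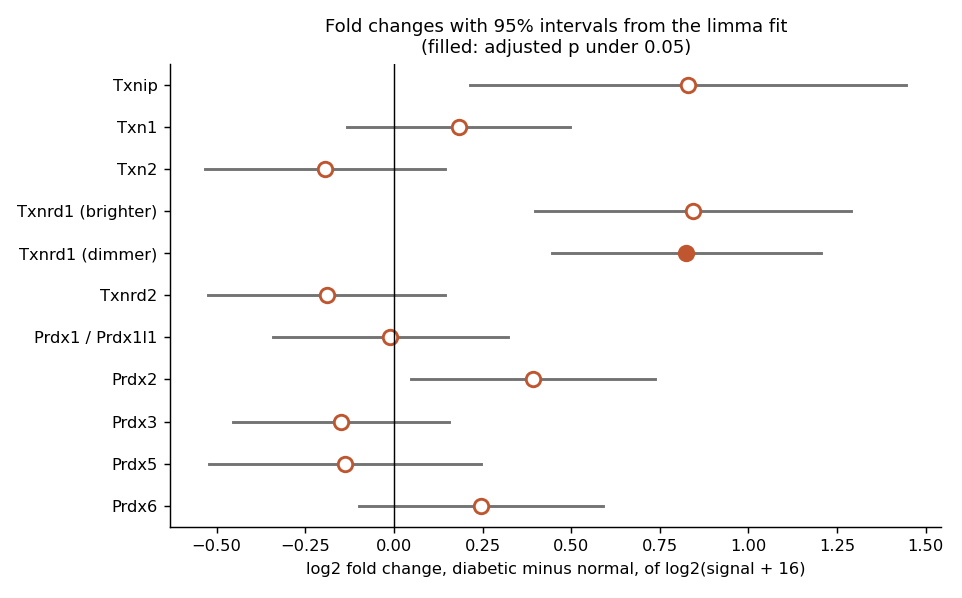
Log2 fold change, diabetic minus normal, of log2(signal + 16) (horizontal axis) for each member probe set, with 95% intervals from limma as bars and a filled point where the adjusted p was under 0.05. The intervals of Txnip, both Txnrd1 probe sets and Prdx2 lie above 0, and the others include 0.

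Peroxiredoxins take their electrons from thioredoxin, apart from Prdx6, which uses glutathione. Prdx2, a cytosolic form that is also among the abundant proteins of red blood cells (1367578_at), had signals of 7407.2, 7228.1 and 7272.5 in normal and 8174.9, 10212.3 and 10579.9 in diabetic hearts. The normal hearts differed from each other by little, with a coefficient of variation (SD over mean) of 1.3%, while diabetic 1 lay closer to them than to the other diabetic hearts. The log2 fold change was 0.39 ± 0.15 (95% interval 0.05 to 0.74, adjusted p = 0.195), and it ranged from 0.32 to 0.51 when arrays were left out in turn. The haemoglobin beta probe set (Hbb) had 24616.4, 25039.2 and 18885.2 in normal and 24065.9, 21534.0 and 15615.3 in diabetic hearts. None of 4 tested red blood cell probe sets, for 3 genes, passed, and all 4 had log2 fold changes below 0 (median -0.26). Over all tested probe sets, 1.50% rose, 1.38% fell and 48.0% had log2 fold changes above 0. Ahsp, too dim to be tested, had a mean of 37.0 in normal and 67.7 in diabetic hearts, with overlap. The summed signal of the list, mostly that of Hbb, was 19622.9 to 25965.9 in normal and 16177.8 to 25146.7 in diabetic hearts. The part of red blood cells in the Prdx2 values was not tested.

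Prdx6, a cytosolic form that also has phospholipase activity (1367969_at), had signals of 3455.8, 3556.7 and 3514.6 in normal and 4873.3, 3974.6 and 3721.6 in diabetic hearts. Diabetic 1 was the highest array, and the lowest diabetic heart was only slightly above the normal hearts. The log2 fold change was 0.25 ± 0.15 (95% interval -0.10 to 0.59, adjusted p = 0.413), and 0.13 without diabetic 1. The probe set for Prdx1 or Prdx1l1 (1367613_at), Prdx1 being another cytosolic form, had 5468.4, 4860.3 and 4789.1 in normal and 5146.0, 5397.5 and 4491.2 in diabetic hearts. These values overlapped throughout, with a log2 fold change of -0.01 ± 0.15 (95% interval -0.34 to 0.32, adjusted p = 0.982).

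Prdx3, the mitochondrial peroxiredoxin that draws on Txn2 (1367591_at), had signals of 6183.2, 6292.6 and 6040.2 in normal and 5826.9, 5238.9 and 5633.3 in diabetic hearts. It was the only member with each diabetic heart below each normal heart, and the difference was small, with a log2 fold change of -0.15 ± 0.13 (95% interval -0.45 to 0.15, adjusted p = 0.590). Prdx5, found in mitochondria, peroxisomes and cytosol (1367677_at), had 3564.2, 4080.5 and 3171.9 in normal and 3492.1, 2744.8 and 3607.1 in diabetic hearts. Its groups overlapped, diabetic 2 was the lowest array, and the log2 fold change was -0.14 ± 0.17 (95% interval -0.52 to 0.25, adjusted p = 0.708). It was -0.02 without diabetic 2 and -0.04 without normal 2.

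Sorted by compartment after their values were seen, the 4 probe sets of members found in mitochondria (Txn2, Txnrd2, Prdx3 and Prdx5, the last also found elsewhere) all had log2 fold changes below 0 (median -0.17). Of the 6 probe sets for cytosolic members other than Txnip, 5 had one above 0 (median 0.32), the exception being Prdx1 or Prdx1l1. Both Txnrd1 probe sets, which measure 1 gene, are counted among these and have the largest values. Over all tested probe sets, 48.0% had log2 fold changes above 0. Within arrays, Txn1 minus Txn2 was 0.38 ± 0.16 higher and Prdx2 minus Prdx3 was 0.54 ± 0.15 higher in diabetic hearts on the log2 scale (difference ± SE), with no overlap in either. Txnip minus Txn1 was 0.65 ± 0.33 higher, also without overlap. These are the remaining 3 of the 5 pairs, each with an exact permutation p of 0.1. Prdx2 minus Prdx3 could not overlap, because every diabetic heart was above every normal heart at Prdx2 and below every normal heart at Prdx3. As the pairs were chosen after their values were seen, they are a description and not a test.

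The diabetic hearts varied more among themselves than the normal hearts did at 9 of the 11 probe sets, by the coefficient of variation, the exceptions being Txnip and Txnrd2. The same held for 54.3% of all tested probe sets. For Prdx6 it was 1.4% in normal and 14.4% in diabetic hearts, and for the dimmer Txnrd1 probe set 3.9% and 17.8%. The array that lay farthest from the other 2 of its group was diabetic 3 at 4 member probe sets, diabetic 2 at 3, diabetic 1 at 2, and normal 1 and normal 3 at 1 each. Over all tested probe sets, each array was the farthest at 14.5% to 21.5%. Among the members, normal 3 was the farthest array at Txnip alone, and normal 2 at none.

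Around these members, 6 lists of related genes held 92 genes on the array and 88 tested probe sets, some of them in more than 1 list. Of these, 4 rose (Cbr1, Sesn1, Mafk and Ephx1) and 0 fell in limma, where 1.50% of all tested probe sets rose and 1.38% fell. At an unadjusted p under 0.05, 15 were higher and 7 lower, where 9.54% of all tested were higher and 10.3% lower. Together these were 25.0% of the 88, where the share over all tested probe sets was 19.9%. The median log2 fold change over the 88 was 0.08. The count of calls was 2 without normal 2 or 3 or any 1 of the diabetic hearts, and 1 with no filter on dim probe sets.

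**Figure D5:**
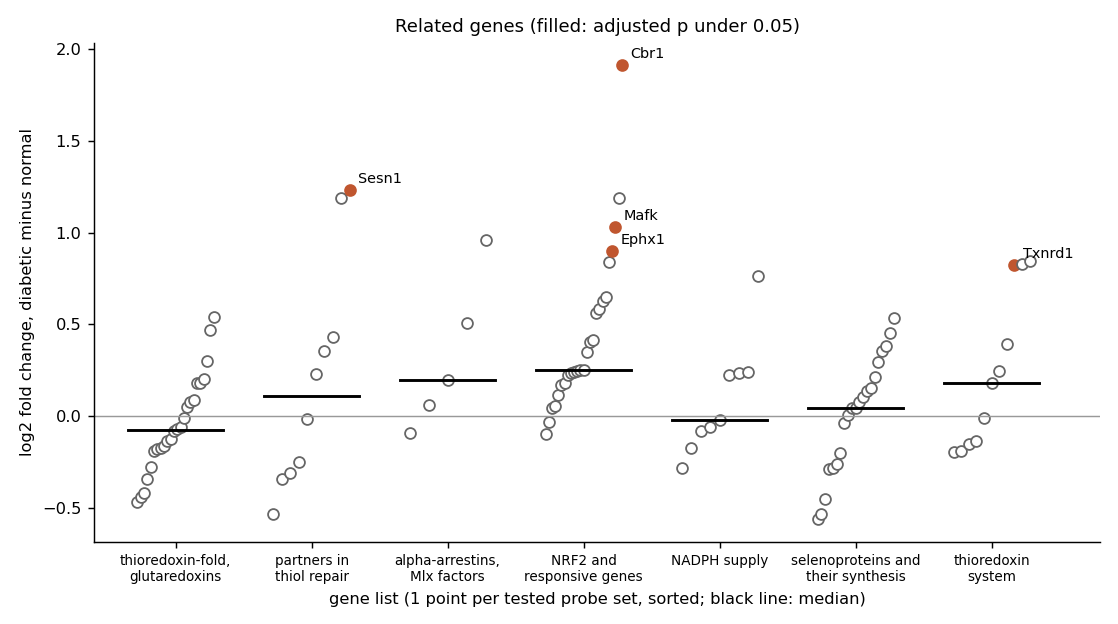
Log2 fold change, diabetic minus normal (vertical axis), of each tested probe set in the 6 lists of related genes and in the thioredoxin system (horizontal axis), filled where the adjusted p was under 0.05, with black lines for medians. Cbr1, Sesn1, Mafk, Ephx1 and the dimmer Txnrd1 probe set are filled, and the NRF2 list has the highest median of the related lists, 0.25.

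NRF2 and genes known to respond to it made up the list with the most calls, with 3 of 25 tested probe sets risen and 0 fallen (6 higher and 0 lower at an unadjusted p under 0.05). Over all tested probe sets, 1.50% rose, and 9.54% were higher and 10.3% lower at that unadjusted p. Its median log2 fold change was 0.25, and 23 of the 25 were above 0, where 48.0% of all tested probe sets were. The 25 probe sets stand for 21 genes, and most of them did not pass. Cbr1, a carbonyl reductase, had signals of 1289.4, 1199.2 and 917.0 in normal and 4799.9, 3873.7 and 4184.7 in diabetic hearts. The groups were far apart, and it rose by 1.91 ± 0.17 on the log2 scale (adjusted p = 0.00184).

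Mafk, a small Maf protein that pairs with NRF2 on DNA, had 780.2, 601.4 and 524.5 in normal and 1204.2, 1671.2 and 1078.3 in diabetic hearts. It rose by 1.03 ± 0.21 on the log2 scale (adjusted p = 0.0396), a call lost without normal 2 or 3 or any diabetic heart (adjusted p up to 0.132, without normal 3). Ephx1, the microsomal epoxide hydrolase, had 376.6, 267.5 and 249.2 in normal and 532.6, 594.3 and 554.2 in diabetic hearts. It rose by 0.90 ± 0.18 on the log2 scale (adjusted p = 0.0347), a call lost without any of those arrays (adjusted p up to 0.121, without normal 3). Both calls were also lost with no filter. The window of Mafk and 1 of 2 windows of Ephx1 held a match to the response element core, and those of Cbr1, Sesn1 and Srxn1 held none. The matching letters in Ephx1 (chr13:95263118-95263367, minus strand) are the same as in Prdx1, and its window is shown for that reason.
Ephx1 window with a match: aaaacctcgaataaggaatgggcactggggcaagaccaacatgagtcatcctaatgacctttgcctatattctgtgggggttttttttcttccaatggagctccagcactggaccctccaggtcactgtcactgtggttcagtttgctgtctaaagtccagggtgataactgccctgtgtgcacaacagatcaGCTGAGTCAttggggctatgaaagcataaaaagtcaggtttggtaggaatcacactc

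Nfe2l2 itself, chosen after its values were seen, had 724.6, 836.3 and 652.6 in normal and 997.9, 1039.5 and 1251.9 in diabetic hearts (log2 fold change 0.56 ± 0.16, adjusted p = 0.0987). The groups did not overlap, and the test was missed. Nqo1, Gclm, Hmox1 and Gclc of the same list, also chosen after their values were seen, did not pass. On the log2 scale Nqo1 was at 0.12 (adjusted p = 0.845), Gclm at 0.25 (adjusted p = 0.594) and Hmox1 at 0.84 (adjusted p = 0.392). The groups overlapped in each of these. The 2 Gclc probe sets differed, at -0.03 with overlap and 0.63 without. The 4 brightest probe sets of this list that did not pass were those of Gstp1, Gstm2, Taldo1 and Me1. Gstp1, a glutathione transferase, was at 0.25 ± 0.19, Gstm2, another of that family, at -0.10 ± 0.19, and Me1, the malic enzyme of the cytosol, at 0.22 ± 0.15 on the log2 scale, while Taldo1, a transaldolase of the pentose phosphate pathway, was at 0.05 ± 0.19.

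Partners of peroxiredoxins and thioredoxin in thiol repair gave 1 call in 10 tested probe sets, that of Sesn1, and 0 fell (2 higher and 2 lower at an unadjusted p under 0.05, where 19.9% of all tested probe sets passed in either direction). Sesn1, one of the stress-induced sestrins, which restrain mTORC1, had signals of 1638.9, 1441.7 and 1033.4 in normal and 3038.9, 3550.3 and 2997.7 in diabetic hearts. Each diabetic heart was well above each normal heart. It rose by 1.23 ± 0.19 on the log2 scale (adjusted p = 0.0130), and the call was lost on leaving out diabetic 2 (adjusted p = 0.0589) and with no filter (adjusted p = 0.0970).

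Srxn1, the sulfiredoxin that restores overoxidised peroxiredoxins, was chosen after its values were seen. It had 698.0, 136.5 and 126.4 in normal and 1287.0, 490.2 and 262.5 in diabetic hearts. Heart 1 was the highest of its group in both groups, the groups overlapped, and the log2 fold change was 1.19 ± 0.68 (adjusted p = 0.372). It ran from 0.59 without diabetic 1 to 1.95 without normal 1. Prdx4, the peroxiredoxin of the endoplasmic reticulum and likewise chosen after its values were seen, had 528.3, 523.7 and 578.2 in normal and 435.5, 386.3 and 456.7 in diabetic hearts (log2 fold change -0.34 ± 0.14, adjusted p = 0.222). Each diabetic heart was below each normal heart. Msrb1, a selenium-containing methionine sulfoxide reductase, was at -0.53 ± 0.18 (adjusted p = 0.140) and Txnrd3, the reductase best known from testis, at 0.36 ± 0.15 (adjusted p = 0.231), with no overlap of the groups in either. Ddit4, a stress-induced inhibitor of mTORC1 that is known to bind Txnip, was at 0.23 ± 0.30 and Apex1, a DNA repair and redox protein, at -0.02 ± 0.15. Ddit4 had 1025.9, 987.3 and 1005.6 in normal and 2058.1, 826.6 and 973.1 in diabetic hearts. Without diabetic 1 its log2 fold change was -0.16.

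None of 5 alpha-arrestin and Mlx probe sets passed (1 higher and 0 lower at an unadjusted p under 0.05, against 9.54% and 10.3% of all tested). Arrdc3, a close relative of Txnip, had 465.6, 540.3 and 642.3 in normal and 1296.6, 621.5 and 1532.6 in diabetic hearts. Diabetic 2 lay within the normal range and the others well above it, with a log2 fold change of 0.96 ± 0.31 (adjusted p = 0.128). It passed without diabetic 2, at 1.35 (adjusted p = 0.0271). Arrdc4, chosen after its values were seen, had 203.3, 231.3 and 234.9 in normal and 380.3, 182.2 and 479.0 in diabetic hearts, and there too diabetic 2 was the low one. At Txnip, by contrast, diabetic 2 was the highest array and normal 3 the lowest. Mlx and Mlxip, factors that carry glucose signals to the Txnip gene, were at -0.09 ± 0.18 and 0.20 ± 0.28, and Arrdc1 was at 0.06 ± 0.18.

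Genes that supply the NADPH used by the reductases did not pass at any of 9 probe sets (1 higher and 0 lower at an unadjusted p under 0.05, against 9.54% and 10.3% of all tested, median -0.02). Idh1, the cytosolic isocitrate dehydrogenase, had 3496.8, 3351.8 and 1560.6 in normal and 4136.5, 5055.9 and 4316.0 in diabetic hearts, so that normal 3 was the low array, as at Txnip. Its log2 fold change was 0.76 ± 0.29 (adjusted p = 0.186), and without normal 3 it was 0.39. The mitochondrial suppliers Idh2, Nnt and Me3 were at -0.18 ± 0.17, -0.06 ± 0.15 and -0.02 ± 0.17.

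The reductases are selenoproteins. None of 21 probe sets for selenoprotein synthesis and other selenoproteins passed (4 higher and 3 lower at an unadjusted p under 0.05, against 9.54% and 10.3% of all tested, median 0.05). Gpx3, the secreted glutathione peroxidase, was at 0.45 ± 0.16 (adjusted p = 0.158) with the groups apart, Gpx4, which reduces lipid peroxides, at 0.30 ± 0.16, Gpx1 at 0.10 ± 0.14 and Selenop, the selenium carrier, at 0.14 ± 0.14. None of 24 thioredoxin-fold and glutaredoxin probe sets passed either (2 higher and 3 lower at an unadjusted p under 0.05, against the same shares, median -0.08). P4hb, the protein disulfide isomerase that also serves collagen hydroxylation, was at -0.42 ± 0.15 (adjusted p = 0.163) with the groups apart, Glrx5 at -0.34 ± 0.19, Txnl1 at -0.28 ± 0.17 at its brighter probe set, and Tmx4 at 0.09 ± 0.17.

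The tissue label was checked against markers of 8 cell types. Cardiomyocyte markers were bright on every array, with a summed signal of 242562.0 to 298597.4 in normal and 222048.5 to 298271.9 in diabetic hearts. None of 12 tested probe sets passed, where 1.50% of all tested probe sets rose and 1.38% fell. At an unadjusted p under 0.05, 0 were higher and 1 lower, against 9.54% and 10.3% of all tested. Of 13 tested fibroblast probe sets, 6 fell, all for Col1a1, Col1a2, Col3a1 or Lum, where 1.38% of all tested probe sets fell. Those of Dcn, Pdgfra, Pdgfrb, Dpt, Mfap5 and Tcf21 did not pass, and Dcn was at -0.01 ± 0.15 on the log2 scale. The mean signal of Col3a1 was 10057.7 in normal and 2578.7 in diabetic hearts, and the list's summed signal was 37808.4 to 42054.9 in normal and 25549.8 to 25842.7 in diabetic hearts. Of 5 atrial markers, Nppa and Dkk3 rose, while Myl4, Myl7 and Sln did not pass. Over all tested probe sets, 1.50% rose. Myl7 had 812.1, 162.4 and 99.9 in normal and 328.1, 468.0 and 131.3 in diabetic hearts. Myl4 had 413.0, 180.3 and 110.4 in normal and 213.3, 524.7 and 194.6 in diabetic hearts. Normal 1 was the farthest array at both, and at Sln it was normal 2, with a signal of 10.5. The summed atrial signal was 5513.2 to 6736.7 in normal and 23581.3 to 33510.9 in diabetic hearts, of which Nppa had a mean of 3670.9 and 25244.2. Tie1 alone fell among 8 endothelial probe sets, against 1.38% of all tested. None of the smooth muscle (5), macrophage and leukocyte (7) and adipocyte (2) probe sets passed. None of them had an unadjusted p under 0.05, where 9.54% of all tested probe sets were higher and 10.3% lower. With so few probe sets in a list, these counts do not show that the cell content was the same. In whole tissue, fewer cells of a type and less RNA per cell cannot be told apart. The part of the changes in collagens, Lum, Nppa and Dkk3 in the values of Txnrd1, Txnip and the other members was not tested. Across tested probe sets, arrays correlated at r = 0.967 to 0.974 within a group and at 0.937 to 0.959 between groups.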

How the data were processed

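The deposited signal intensities, 1 per probe set and array, were used as the authors gave them. The software that made them is not given in the sources used here. Of 15923 probe sets, 57 controls were left out. Symbols came from the platform annotation (12783 probe sets with 1 gene, 312 with several, 2771 with none). They were matched by RefSeq gene number for 12748, and 1 symbol changed in all. Values were taken as log2(signal + 16), probe sets below the 40th percentile of mean log2 signal were left out (9519 of 15866 stayed), and diabetic was compared with normal in limma 3.58.1 (R 4.3.3) without covariates, with Benjamini-Hochberg adjustment. Python 3.11.15 did the rest. The procedure was tried on simulated arrays with independent noise, which do not copy how single arrays depart in these data. No result given here rests on that trial. Alternatives changed the pseudocount, normalization, filter, variance prior, array weights and replicate block, or left out each array.

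All members are named. Of each related list, the text names calls, up to 6 by smallest p, and the brightest uncalled probe sets, up to 4. It also names the 3 probe sets most like Txnip and markers in lists that differ between groups, and says where a gene was chosen otherwise. Members and lists were chosen with earlier results of these data known. Same-numbered hearts did not deviate together (correlations 0.07, 0.01 and 0.02), so the numbers were not taken as pairs. The number of arrays, 3 a group, limits the precision.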

Additional observations from a re-analysis of the deposited data

How the results depend on the processing

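Among the members, 1 probe set passed as reported. With a pseudocount of 64, a filter at the 60th percentile or an intensity trend in the prior, 2 passed, and 0 passed with no filter or with a replicate block. The count was 0 to 2 when single arrays were left out. Of the related genes, 4 passed as reported, 1 with no filter and 2 to 4 with arrays left out. The replicate block, on numbers that do not pair the hearts, gave 3: Mafk (adjusted p = 0.0515) and Ephx1 (0.0627) no longer passed, nor did the dimmer Txnrd1 probe set (0.0555), and Srxn1 did (0.0423). Over all tested probe sets, 274 passed as reported, 18 with no filter, 437 with the 60th percentile filter, 527 with the trend, 183 with the replicate block and 100 to 202 with arrays left out. Txnip passed under none of these settings. The causes were not tested.

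Several log2 fold changes that had not passed changed sign. Apex1 was at 0.008 under quantile normalization. With arrays left out in turn, the log2 fold change ran from -0.10 to 0.081 for Apex1, -0.058 to 0.174 for Arrdc1, -0.163 to 0.487 for Ddit4, -0.233 to 0.008 for Gstm2, -0.107 to 0.125 for Me3, -0.228 to 0.036 for Mlx, -0.068 to 0.441 for Mlxip, -0.065 to 0.067 for Prdx1 or Prdx1l1 and -0.12 to 0.213 for Taldo1.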
